A study of Homo sapiens with 4 samples.

Results

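The miRNA clusters known from embryonic stem cells and from the placenta were examined in hepatic cancer stem cells (HCSCs) and in the hepatoma cells (HCC cells) they were derived from. Their 62 mature miRNAs were taken by name from the 1733 miRNAs counted in each library. They comprise 7 miRNAs of the miR-302/miR-367 group and 6 of the miR-371/miR-373 cluster with miR-372, here called the pluripotency clusters, and 49 of the placental cluster on chromosome 19 (C19MC). Passenger arms, written with an asterisk, were left out of the 62 and counted separately. Small RNA had been sequenced from Hep3B and Huh7, a pair of established human hepatoma cell lines, and from the stem-like cells cultured from each, Hep3B-C and Huh7-C. The HCSCs are described as cells enriched from their parent line, with stem cell properties examined in earlier work, and how they were enriched is not given in the sources used here, nor is any treatment, time or genetic change in the 4 groups. Each group was 1 library (n = 1, no replicates), so each difference compares 2 libraries and has no replicate check.

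The miR-302/miR-367 cluster is transcribed in human embryonic stem cells, where it is among the most abundant miRNAs, and it is shut down as the cells differentiate. The miR-371/miR-373 cluster is also active in pluripotent cells and is a known marker of germ cell tumors. C19MC is a large primate cluster with an imprinted, mostly placental expression, and it has been found active in some tumors. A miRNA selects its targets largely through its seed, bases 2 to 8 from the 5′ end, and many miRNAs of these 3 groups have a seed in common.

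The sequences of the miRNAs on which the comparison turns are given as in RefSeq (GRCh38.p14), 5′ to 3′, with the seed in capitals. The first 6 have the seed AAGUGCU, the next ones the seeds of miR-371-5p and of the only passenger arm of miR-302/miR-367 with reads, and the last 6 show the seeds that miR-519d and miR-367 have in common with miRNAs outside the clusters.
hsa-miR-302a: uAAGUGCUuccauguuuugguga
hsa-miR-302b: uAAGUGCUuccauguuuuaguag
hsa-miR-302d: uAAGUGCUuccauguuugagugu
hsa-miR-372: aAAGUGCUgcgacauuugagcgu
hsa-miR-373: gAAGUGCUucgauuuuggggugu
hsa-miR-520a-3p: aAAGUGCUucccuuuggacugu
hsa-miR-371-5p: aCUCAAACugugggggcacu
hsa-miR-302a*: aCUUAAACguggauguacuugcu
hsa-miR-519d: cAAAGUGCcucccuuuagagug
hsa-miR-17: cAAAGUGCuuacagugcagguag
hsa-miR-20a: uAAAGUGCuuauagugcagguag
hsa-miR-367: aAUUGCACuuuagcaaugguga
hsa-miR-25: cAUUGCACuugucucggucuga
hsa-miR-92a: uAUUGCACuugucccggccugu

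In all, 59 of the 62 miRNAs matched a RefSeq mature sequence, with 32 different seeds, and miR-518f, miR-522 and miR-527 were not matched. The seed AAGUGCU was the most frequent, with 12 miRNAs from all 3 groups (miR-302a to miR-302e, miR-372, miR-373 and 5 miRNAs of the miR-520 family), and no human miRNA outside the clusters carries it in the table. The mature miR-302b, miR-302c and miR-302d each differ from miR-302a at 3 bases, which lie between positions 18 and 23. The placental miR-517a and miR-517b are identical, as are miR-518d-5p, miR-520c-5p and miR-526a, so that their reads cannot be told apart. The mature sequences of miR-302e and miR-302f are 17 bases long, below the 18 nt under which the authors discarded reads, and reads of exactly that form could not be counted.

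The 5 hairpins of the miR-302/miR-367 cluster occupy positions 112647874 to 112648557 of chromosome 4 (GRCh38), within an intron of LARP7 on the opposite strand (GENCODE release 29). On the same strand they lie within AC106864.1, annotated as antisense, in an intron except for MIR302B, which overlaps an exon. MIR302E (chromosome 11, 7234766 to 7234837) and MIR302F (chromosome 18, 30298910 to 30298960) lie apart from the cluster, outside other genes. The 42 C19MC hairpins matched by name span chromosome 19 from 53666679 to 53762430, and all but 1, MIR519A2 in an exon of the long noncoding RNA AC011453.1, lie outside other genes. The miR-371/miR-373 hairpins follow on the same chromosome after 25244 bases, from 53787675 to 53788773, and MIR371A, MIR371B and MIR372 overlap exons of the long noncoding RNA AC008753.3. That RNA lies on the strand opposite to MIR371A and MIR372, and on the same strand as MIR371B. The deposited files hold no positions.

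Total miRNA counts ranged from 1739278 in Hep3B to 5741567 in Huh7, and between 664 and 773 miRNAs had at least 1 count. Levels are given as counts and as TPM, here counts divided by all reads of a library, miRNA or not, and multiplied by 1000000. The miRNA share of all reads was 10.4% (Hep3B), 35.2% (Hep3B-C), 54.1% (Huh7) and 37.8% (Huh7-C). A count of 0 allows a level of up to 3 counts, which equals 0.179 TPM (Hep3B), 0.194 TPM (Hep3B-C), 0.282 TPM (Huh7) and 0.280 TPM (Huh7-C). This limit of 3 counts is used wherever a library had 0. Such limits, and all intervals given (95%), cover counting error only. The hepatocyte miRNAs miR-122, miR-192 and miR-194 were present in each library and together made up 10.1% to 21.4% of miRNA counts, although miR-122 had only 397 counts in Hep3B, against 149892 (Hep3B-C), 489443 (Huh7) and 144814 (Huh7-C) elsewhere. For the HCSCs the pluripotent markers fixed for the label check were miR-302a to miR-302d and miR-367, and these were at 0 counts in all 4 libraries.

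Of the 62 cluster miRNAs, 56 (90.3%) had no count in any library, against 791 of all 1733 miRNAs (45.6%). In Hep3B-C, none of the 62 had a count, while 44.6% of all miRNAs were detected there. Huh7-C had reads of 4 cluster miRNAs (6.45%), Huh7 of 2 and Hep3B of 2. Only Huh7-C held cluster miRNAs with more than 3 counts, and these were 3 miRNAs of miR-371/miR-373. No cluster miRNA reached 10 counts in a library, a level that 547 of all miRNAs (31.6%) reached in at least 1 library.

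**Figure D1:**
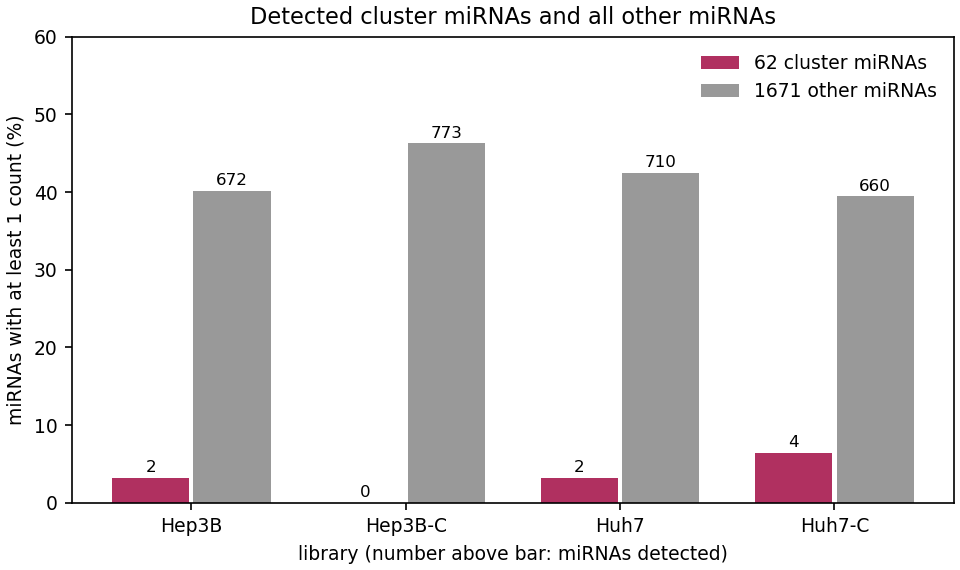
Share of miRNAs with at least 1 count (vertical axis, %) in each of the 4 libraries, for the 62 cluster miRNAs and the 1671 other miRNAs, with the number detected above each bar. Between 0 and 4 cluster miRNAs were detected per library, against 660 to 773 of the others.

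The miR-302/miR-367 group was not detectable. Each of miR-302a, miR-302b, miR-302c, miR-302d, miR-302e, miR-302f and miR-367 had 0 counts in each of the 4 libraries. For their sum, the limit of 3 counts equals 5.52e-05% of miRNA counts in Hep3B-C and 7.42e-05% in Huh7-C. It does not cover the 17-base forms of miR-302e and miR-302f, which the cutoff of 18 nt removed. Their 5 passenger arms were at 0 in Hep3B, Hep3B-C and Huh7. In Huh7-C the arm miR-302a* had 3 counts (0.280 TPM), beside 0 counts of miR-302a from the same hairpin. Both HCSC libraries were thus without a read of the guide arms that characterize embryonic stem cells, at a depth of 4045199 and 5430195 miRNA counts.

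Reads of miR-371/miR-373 were found in the Huh7 pair, and none in the Hep3B pair. The arm miR-371-5p had 7 counts in Huh7-C (0.653 TPM) and 0 in Huh7, Hep3B and Hep3B-C. Of miR-372, which is known to promote proliferation of germ cell tumor cells, Huh7-C had 4 counts and Huh7 had 1, against 0 in Hep3B and Hep3B-C. Of miR-373, which has the same seed, Huh7-C had 5 counts and Huh7 had 2, against 0 in both Hep3B libraries. In these cultures, fewer cells with a miRNA and less of it per cell cannot be told apart. Each of the 3 was highest in Huh7-C, but all lay in the lower part of that library, where 57.1% of detected miRNAs had more counts than miR-371-5p and the median detected miRNA had 12. The opposite arm miR-371-3p, both arms of the antisense hairpin (miR-371b-5p and miR-371b-3p) and the passenger arm miR-373* were at 0 in all libraries.

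**Figure D2:**
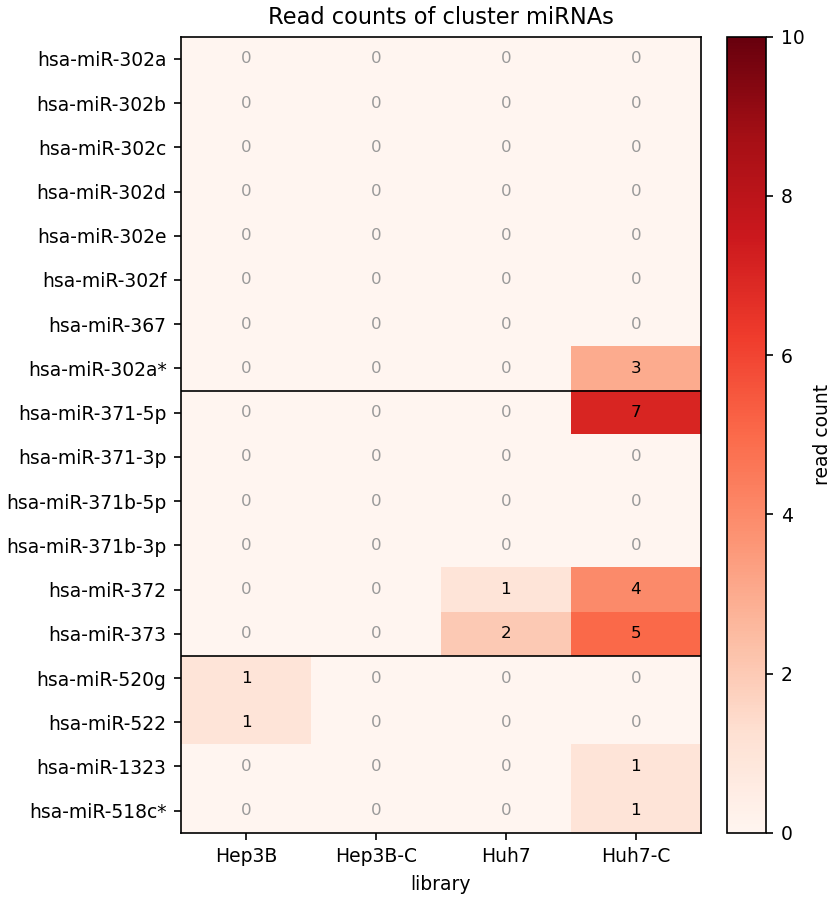
Read counts (color and printed number) of all 13 miRNAs of the pluripotency clusters, of the 3 C19MC miRNAs with reads and of the passenger arms with reads, by library. Horizontal lines separate miR-302/miR-367, miR-371/miR-373 and C19MC, and the highest count is 7 (miR-371-5p in Huh7-C).

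Summed over its 6 miRNAs, miR-371/miR-373 had 3 counts in Huh7 (0.282 TPM, exact Poisson interval 0.0582 to 0.825) and 16 in Huh7-C (1.49 TPM, interval 0.854 to 2.42). The ratio of Huh7-C to Huh7 was 5.29 (exact binomial interval 1.51 to 28.3), a log2 ratio of 2.40. Huh7 had the larger total of miRNA counts, and relative to 1000000 miRNA counts the sums were 0.523 and 3.96. Without miR-371-5p, the most abundant of the 6, the log2 ratio was 1.57 with an interval of -0.43 to 4.09, which includes no difference. Against Hep3B-C, which had 0 counts, the level in Huh7-C was at least 7.69-fold higher in TPM and at least 7.16-fold higher relative to miRNA counts. Both folds set the observed 16 counts against the limit of 3, without the counting error of the 16. In the same libraries, the summed counts of 5 blood cell markers were 796 in Huh7 and 5 in Huh7-C, of which miR-451 gave 773 and 2 and miR-150 was at 0. The 3 muscle markers summed to 65 and 139, and the 3 fibroblast markers to 34 and 15. The endothelium marker miR-126 had 2031 and 1618 counts. What part other cells had in the miR-371/miR-373 reads was not tested.

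**Figure D3:**
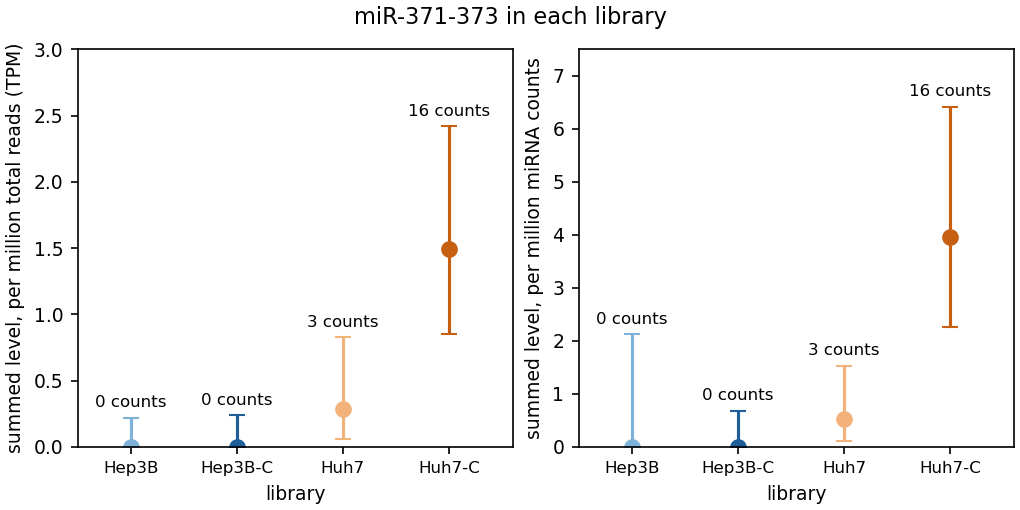
Summed level of the 6 miR-371/miR-373 miRNAs in each library, in TPM (left) and relative to 1000000 miRNA counts (right). Bars are exact 95% intervals of 1 library each, with the summed counts above them, and Huh7-C is highest on both scales (1.49 and 3.96).

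C19MC was at or below the limit of the depth in every library. Its 49 miRNAs together had 2 counts in Hep3B and 1 in Huh7-C, while Hep3B-C and Huh7 had 0. The 2 counts of Hep3B were 1 read each of miR-520g and miR-522, and the read in Huh7-C was of miR-1323. All the other 46 miRNAs were at 0 in all libraries, including the abundant placental miRNAs miR-512-3p, miR-517a and miR-519d. Among the 10 passenger arms of the cluster, 1 read of miR-518c* was found, in Huh7-C. As no library exceeded 3 counts for the whole cluster, no fold was computed. Of the matched C19MC miRNAs, 12 come from more than 1 hairpin. Reads that fit several hairpins were kept in these files, as let-7a, with 3 hairpins, had 54615 to 276287 counts. The identical miR-199a-3p and miR-199b-3p, chosen after their values were seen, both had 165 counts in Hep3B.

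Each HCSC library was then set against that of its parent line with an exact Poisson test (Audic-Claverie), adjusted over all miRNAs with a count in the pair. A call required an absolute log2 fold-change of 1 or more at an adjusted p of 0.01 or less. The p-values compare the 2 libraries and not the conditions. In the Hep3B pair, 2 cluster miRNAs could be tested and 0 were called, whereas 35.5% of the 834 miRNAs tested were called. In the Huh7 pair, 4 were tested and 0 called, against 20.1% of 772. Over all miRNAs, 275 (33.0%) were higher and 21 (2.52%) lower in Hep3B-C (44 and 112 when library size was the sum of miRNA counts), and 23 (2.98%) were higher and 132 (17.1%) lower in Huh7-C (54 and 74). The call needs at least 9 counts in Hep3B-C, or 10 in Huh7-C, when the HCC library has 0, and no cluster miRNA had that many. The other cluster miRNAs were at 0 in both libraries of a pair and have no test.

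The smallest adjusted p was that of miR-371-5p in the Huh7 pair, 0.0433 by the exact Poisson test (0 against 7 counts). The 7 counts are at least 2.31-fold above the limit of 3 counts in Huh7, and with their counting error the exact interval of the log2 ratio begins at 0.51. This adjusted p would pass only a threshold of 0.05. At that threshold, 29 of the 772 miRNAs tested were called higher and 153 lower, 23.6% in both directions together. Over the alternative settings, the adjusted p of miR-371-5p ranged from 0.0119 to 0.405. For miR-372 the log2 fold-change was 1.99 (interval -1.35 to 7.61, adjusted p = 0.584, exact test) and for miR-373 it was 1.31 (interval -1.30 to 4.70, adjusted p = 0.670, exact test). Neither differed beyond counting error. Both lines were also fitted together by the quasi-likelihood test of edgeR, with the parent line as a block. No cluster miRNA had the 10 counts in 2 libraries required there. Of the 443 others, 0 (0%) were called by edgeR and 31 had an unadjusted p below 0.05, while DESeq2 called 5, 4 higher and 1 lower in HCSCs.

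MiRNAs with a related seed were abundant in all 4 libraries. The seed of miR-17, AAAGUGC, is that of miR-302 moved by 1 base, and its family is linked to proliferation. Counts of its 6 miRNAs outside the clusters (miR-17, miR-20a, miR-20b, miR-93, miR-106a and miR-106b) summed to 82502 (Hep3B), 136898 (Hep3B-C), 43408 (Huh7) and 37542 (Huh7-C). The 12 cluster miRNAs with AAGUGCU summed to 0, 0, 3 and 9 counts. Set against the limit of 3 counts, the related seed was thus at least 27501-fold higher in Hep3B and at least 45633-fold higher in Hep3B-C, and it was 4171-fold higher in Huh7-C. The placental miR-519d has the miR-17 seed itself, and had 0 counts in each library.

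Similarly, the seed of miR-367 is found in 5 miRNAs outside the clusters, which were looked up after the counts of miR-367 were seen. These 5 (miR-25, miR-32, miR-92a, miR-92b and miR-363) summed to 24898 (Hep3B), 111268 (Hep3B-C), 10959 (Huh7) and 9631 (Huh7-C) counts. In Hep3B-C, miR-92a alone had 96268 counts, beside 0 of miR-367.

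**Figure D4:**
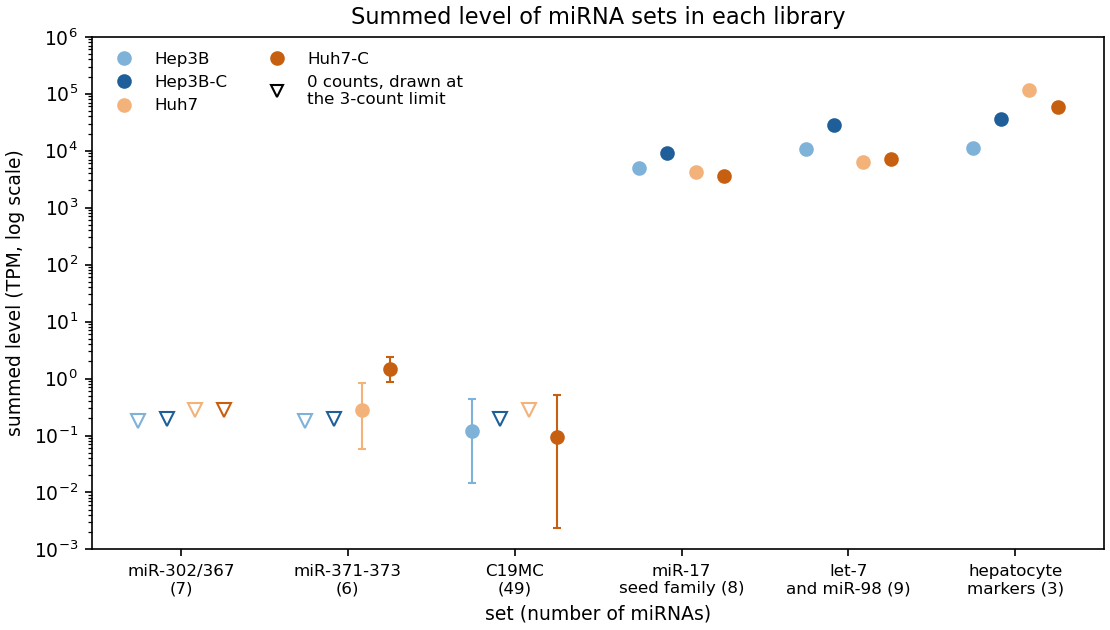
Summed level of each miRNA set (TPM, log scale) in each library, with the number of miRNAs in parentheses and exact 95% Poisson intervals. Triangles mark sets at 0 counts, drawn at the limit of 3 counts, and the 3 cluster groups lie at or below 1.49 TPM while the other sets lie at or above 3549 TPM. The miR-17 set includes miR-18a and miR-18b, which have the seed AAGGUGC and not that of miR-17.

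The miR-17 and let-7 families were compared as listed pathway members. For the 8 listed miRNAs of the miR-17 family, which include miR-18a and miR-18b, 1 was called higher in Hep3B-C (miR-20a, log2 fold-change 1.14) and 1 lower in Huh7-C (miR-18a, log2 fold-change -1.82). Of the 8, miR-18a and miR-18b have the seed AAGGUGC and not that of miR-17. Over all miRNAs tested, 33.0% were called higher in Hep3B-C and 17.1% lower in Huh7-C. The let-7 family with miR-98, which accumulates on differentiation and is held back by LIN28 in embryonic stem cells, was abundant in all libraries, with 66724 to 443526 summed counts. Of its 9 miRNAs, 3 were called higher in Hep3B-C (let-7a, let-7b and let-7c) and 1 lower in Huh7-C (let-7e), to be read against the same shares over all miRNAs. The median log2 fold-change of let-7 (0.5 counts added) was 0.51 for Hep3B-C over Hep3B and -0.01 for Huh7-C over Huh7, beside 1.45 and -0.62 over all miRNAs tested. When library size was the sum of miRNA counts, the median over all miRNAs moved to -0.31 and -0.10 and that of let-7 to -1.25 and 0.51. Under this choice, 0 let-7 miRNAs were higher and 5 lower in Hep3B-C, with 1 higher and 0 lower in Huh7-C. The miR-17 family then had 0 higher and 3 lower in Hep3B-C, and 1 lower in Huh7-C. Over all miRNAs tested, 44 of 834 were then called higher and 112 lower in Hep3B-C. In Huh7-C, 54 of 772 were called higher and 74 lower. The cluster miRNAs had 0 calls under both choices, which their counts of 7 or fewer largely fixed.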

How the data were processed

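Small RNA of Hep3B, Hep3B-C, Huh7 and Huh7-C was sequenced (1 library each). Reads below 18 nt, contaminants and redundant reads were discarded by the authors, who mapped with SOAP to NCBI Build 36.1, set aside other small RNA classes and assigned the rest to miRBase release 17. The deposited values are raw counts per miRNA, without normalization. How reads fitting several miRNAs were assigned is not given in the sources used here.

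From these counts, TPM was computed with the total reads stated by the study. The pair test was 2-sided and included the observed count in both tails, with a TPM of 0 set to 0.001 for fold-changes. For both lines together, edgeR used TMM normalization and miRNAs with at least 10 counts in 2 libraries, at an adjusted p of 0.05. P-values were adjusted by Benjamini-Hochberg. The tests were checked on simulated data, with changes planted only in miRNAs that had more counts than any cluster miRNA. That check does not cover miRNAs at the level of the clusters. Older names were matched by hand to present arm names for sequences and seeds, and hairpin positions come from GENCODE release 29.

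The cluster miRNAs, lists and tests were chosen with earlier results of these data known. Named were all miRNAs of the pluripotency clusters, C19MC miRNAs with at least 10 counts or a call (none), the listed families and markers, and, after their values were seen, C19MC miRNAs with any read. Computations used Python 3.11.15 (numpy 2.4.6, scipy 1.17.1, pandas 2.3.3, matplotlib 3.10.9) and R 4.3.3 (edgeR 4.0.16, DESeq2 1.42.0).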

Additional observations from a re-analysis of the deposited data

Results flagged for a closer look

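Passenger arms were outside the cluster miRNAs analysed, and 2 of them had reads in an HCSC library and none in its HCC library. In Huh7-C, miR-302a* had 3 counts, and miR-518c* had 1 count, and both were at 0 in Huh7. Neither is above the limit of 3 counts used for a count of 0.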

How the results depend on the processing

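The number of cluster miRNAs called in each direction stayed at 0 in both pairs when libraries were scaled by miRNA counts, TMM or the size factors of DESeq2, at a biological coefficient of variation set to 0.4, with 0.5 counts added, with identical sequences counted once, and with an upper tail without the observed count, which was added after the data were seen. These zeros were largely fixed by depth and say little on stability. The 2 tested in the Hep3B pair had 1 count each in Hep3B and 0 in Hep3B-C. A call lower there needs 9 against 0 with the main settings. In the Huh7 pair, none had more than 2 counts in Huh7, so none could be called lower. Among those tested for a higher level, only miR-371-5p came near a call. Calls over all miRNAs did change. Scaled by TMM, 71 were higher and 76 lower in Hep3B-C, and with the size factors of DESeq2 92 and 59, or at a coefficient of 0.4, 25 and 0. For Huh7-C the same settings gave 38 and 90, 57 and 71, and 5 and 10. A minimum of 10 counts in either library left no cluster miRNA to test. With an adjusted p of 0.05, 1 was called higher in Huh7-C, miR-371-5p (adjusted p 0.0433, exact Poisson test). Of all 772 miRNAs tested in that pair, 29 were then called higher and 153 lower. The log2 ratio of summed miR-371/miR-373 counts in the Huh7 pair was 2.72 to 2.98 under the other library sizes and 1.57 without miR-371-5p, where its interval (-0.43 to 4.09) includes 0. Counting identical sequences once or adding passenger arms could not move it, as neither adds or removes a read. Ratios of the summed miR-302/miR-367 counts and of the summed C19MC counts were not computed, since each library was at or below 3 counts. Requiring more than 3 counts left 0 cluster miRNAs in Hep3B and 0 in Huh7. Scaled to the smallest total of miRNA counts, 0.817 were expected in Huh7. In the model over both lines, 0 cluster miRNAs were tested under DESeq2, total reads, no replicate block and each library left out. Without a count filter, 6 were tested and 0 called by edgeR, with 0 at an unadjusted p below 0.05 and a smallest adjusted p of 0.935. Over all 942 miRNAs tested in that setting, 0 were called and only 47 had an unadjusted p below 0.05. The zeros of these 6 thus do not set the clusters apart. With 1 library per condition, neither variation between cultures nor levels below 3 counts can be resolved.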

Other observations

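A further list held miRNAs known to change as pluripotent cells differentiate, of which 5 of 6 were in the files. In the Hep3B pair, miR-134 (842 to 4840 counts, log2 fold-change 2.64) and miR-200c (606 to 5085 counts, 3.19) were called higher in Hep3B-C by the exact Poisson test. Over all miRNAs tested, 33.0% were called higher there. Of the pair, only miR-200c stayed called when library size was the sum of miRNA counts (1.43). In the Huh7 pair, miR-134, of the imprinted cluster on chromosome 14, was called lower (178 to 5 counts, log2 fold-change -5.17), and miR-200c, with 316 counts in Huh7, was not called (0.23). Whether the 2 lines differ in these was not tested. The counts of miR-145, which is known to target pluripotency factors, were 5 in Hep3B-C and 0 in the other libraries. For miR-296-5p, Hep3B had 12 counts, Hep3B-C had 6, and both Huh7 libraries had 0. For miR-203, the counts were 4 (Hep3B), 2 (Hep3B-C), 27 (Huh7) and 12 (Huh7-C). None of these 3 was called with total reads. When library size was the sum of miRNA counts, miR-296-5p was called lower in Hep3B-C (log2 fold-change -2.64). Over all 834 miRNAs tested, 112 were called lower there under this choice.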
